A study of Mus musculus with 8 samples.

Results

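The chaperone genes described here are 43 named members of the heat shock, chaperonin and prefoldin systems of the cytosol and mitochondria, out of 48795 genes in the count table. They were chosen by symbol: 2 heat shock factors, the HSP70, HSP110, HSP90 and DnaJ families, the small heat shock protein Hspb1, the 8 subunits of the chaperonin TRiC, 5 prefoldin subunits, co-chaperones and 4 mitochondrial chaperones. All 43 were found in the table and all 43 passed the filter on low counts, as did 14178 genes in all. LSK cells were sorted by flow cytometry from bone marrow as Lin-, Sca+ and cKIT+ cells, a gate in which haematopoietic stem and progenitor cells are found. There were 4 libraries from C57BL/6 mice with SIRT1 deleted (cre+) and 4 from control (cre-) mice of the same strain, each labelled a biological replicate. Mice of both groups carried chronic myeloid leukaemia (CML), induced 10 weeks before the cells were sorted. SIRT1 is an NAD-dependent deacetylase, and the study's title concerns its part in mitochondrial respiration and leukaemogenicity of CML stem cells. The labels do not state which promoter drives Cre, how the leukaemia was induced or how old the mice were.

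Chaperones bind proteins that are unfolded or only partly folded and release them to fold, with ATP as the energy source in the HSP70, HSP90 and chaperonin families. Constitutive members such as Hspa8, Hsp90ab1 and TRiC serve newly made proteins in all cells, whereas inducible members such as Hspa1a and Hspa1b are kept low until unfolded protein frees the transcription factor HSF1 from chaperones that hold it back. HSF1 then binds heat shock elements, inverted repeats of the unit GAA and its complement TTC in promoters. SIRT1 has been described in mammalian cells as a deacetylase of HSF1 that prolongs its binding to DNA.

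The promoters below, 4 of inducible members and 1 of a mitochondrial member, show how heat shock units are arranged in these genes. The windows are those of RefSeq on GRCm38.p6 and run from 250 bases before to 50 bases after an annotated start, on the strand of the gene. A window was found for 36 of the 43 members. Capitals mark every match to a pair of units, GAANNTTC or TTCNNGAA, in which N is any base. Both forms read the same on either strand. Hspa1a (chr17:34972107-34972406, minus strand) and Hspa1b (chr17:34959189-34959488, minus strand) are shown because their transcripts differed most between the genotypes. Hsph1 (chr5:149636287-149636586, minus strand) and Chordc1 (chr9:18292017-18292316, plus strand) are the inducible members whose windows hold a run of 3 units. Hspe1 (chr1:55087898-55088197, plus strand) is shown because its window overlaps a window of Hspd1, which is transcribed the other way. The windows of Hspa1a, Hspa1b and Hspe1 were chosen after values had been seen.
Hspa1a: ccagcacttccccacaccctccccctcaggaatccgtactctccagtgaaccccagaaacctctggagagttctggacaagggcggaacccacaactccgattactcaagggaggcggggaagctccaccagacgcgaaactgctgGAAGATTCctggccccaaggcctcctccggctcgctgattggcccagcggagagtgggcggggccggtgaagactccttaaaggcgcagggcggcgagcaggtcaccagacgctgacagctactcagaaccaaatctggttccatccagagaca
Hspa1b: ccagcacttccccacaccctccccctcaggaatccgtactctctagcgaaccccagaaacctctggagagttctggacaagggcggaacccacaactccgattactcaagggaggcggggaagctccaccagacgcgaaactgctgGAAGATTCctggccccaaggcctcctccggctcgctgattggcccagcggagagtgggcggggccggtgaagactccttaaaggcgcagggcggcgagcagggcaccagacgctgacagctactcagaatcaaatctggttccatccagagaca
Hsph1: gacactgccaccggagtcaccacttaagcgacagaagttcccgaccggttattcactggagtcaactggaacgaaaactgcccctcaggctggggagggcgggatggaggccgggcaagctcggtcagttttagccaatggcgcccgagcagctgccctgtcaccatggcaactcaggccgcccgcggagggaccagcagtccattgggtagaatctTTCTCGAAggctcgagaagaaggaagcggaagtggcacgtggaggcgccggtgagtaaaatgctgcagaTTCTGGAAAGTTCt
Chordc1: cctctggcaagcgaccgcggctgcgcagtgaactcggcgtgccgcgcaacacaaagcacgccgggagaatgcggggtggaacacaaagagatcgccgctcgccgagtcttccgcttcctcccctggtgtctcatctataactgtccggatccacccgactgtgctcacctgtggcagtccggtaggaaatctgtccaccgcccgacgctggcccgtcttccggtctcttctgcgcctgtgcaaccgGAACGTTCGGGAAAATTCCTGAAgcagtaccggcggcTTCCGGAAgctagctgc
Hspe1: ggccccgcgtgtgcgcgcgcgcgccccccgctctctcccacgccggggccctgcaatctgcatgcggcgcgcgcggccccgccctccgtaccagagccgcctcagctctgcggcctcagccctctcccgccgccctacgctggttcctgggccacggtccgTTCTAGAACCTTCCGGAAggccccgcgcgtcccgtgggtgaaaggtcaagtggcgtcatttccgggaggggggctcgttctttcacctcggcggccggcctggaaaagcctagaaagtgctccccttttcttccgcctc

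The windows of Hspa1a and Hspa1b were identical at 296 of 300 positions, and each held a single pair of units, 104 bases before the start. Hsph1 held 3 matches to a pair, the earliest 33 bases before the start, and Chordc1 held 5, the earliest 4 bases before it. Matches were not particular to the inducible class, and no test of the classes was made. Among the inducible members with a window, 8 of 9 held a match to a pair of units (88.9%), the exception being Dnajb1. Among the constitutive members it was 6 of 21 (28.6%), and among all 27025 genes with a window it was 17.0%. A run of 3 units (GAANNTTC followed by NNGAA, searched on both strands, so that each run also counts as 2 overlapping pairs) was present in 5 of the 36 members (Chordc1, Dnajb6, Hspd1, Hspe1 and Hsph1), against 0.662% of all genes. These matches describe letters in a window and not sites of binding. Hspd1 and Hspe1 lie head to head on chromosome 1 with exons that overlap by 112 bases, so their windows hold the same stretch. Where a gene has several annotated starts, it was counted if any of its windows held a match.

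The libraries held 24648721 to 34280925 gene counts in Sirt1-deleted mice and 18252562 to 28883834 in controls. Counts scaled to the library sizes of the edgeR fit (TMM) are given as CPM. Sirt1, the targeted gene, had 441, 391, 218 and 242 counts in Sirt1-deleted libraries 1 to 4 and 386, 498, 147 and 202 in controls 1 to 4. A count over the whole gene does not show if exons are missing, so it checks no label. Sirt1-deleted 1 and control 2 had the fewest detected genes (16154 and 15316, against 16670 to 20342 in the others). All 10 LSK markers were detected, with Slamf1 at 0 in some libraries, and their summed level was 1276 to 1616 CPM in Sirt1-deleted libraries and 894 to 1627 CPM in controls. The overlapping sums hold values of either sign, with 8 of the 10 log2 fold changes positive and a median of 1.16. Kit, a receptor used in the sort, had 108, 141, 142 and 157 CPM in Sirt1-deleted libraries 1 to 4, against 34.4, 37.1, 43.97 and 32.4 CPM in controls 1 to 4. It was among the genes called (3.71-fold higher, edgeR adjusted p = 0.0145). Cd34, a progenitor marker, was 1.80-fold higher with separate groups (adjusted p = 0.0810), while Ly6a, which encodes Sca-1, had a log2 fold change of -1.09 with separate groups (adjusted p = 0.228). Markers of other cells were present as well. The 10 neutrophil markers summed to 1231 to 2838 CPM in Sirt1-deleted libraries and 2111 to 5489 CPM in controls, and all 10 were tested, 1 with a positive log2 fold change. The 8 T and NK markers summed to 460 to 524 CPM in Sirt1-deleted libraries and 613 to 736 CPM in controls, with Cd4 and Cd8a at 0 in some libraries. The 6 mast and basophil markers summed to 240 to 970 CPM in Sirt1-deleted libraries and 948 to 5265 CPM in controls. The 8 B and plasma cell markers summed to 640 to 5134 CPM in Sirt1-deleted libraries and 809 to 2270 CPM in controls, with Ms4a1 at 0 in some. The 7 erythroid markers summed to 3.83 to 62.3 CPM in Sirt1-deleted libraries and 7.53 to 117 CPM in controls. In bulk samples fewer cells of a type and less RNA per cell cannot be told apart, and the part of these shifts in the results below was not tested.

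The inducible HSP70 transcripts and Dnajb1 were higher on average in Sirt1-deleted LSK cells, and the prefoldin subunits were lower. No chaperone passed the test over all genes, and Hspa1b overlapped between the groups. The edgeR quasi-likelihood test called 0 of the 43 members at an adjusted p under 0.05, where it called 0.0846% of all genes tested (12 genes). At an unadjusted p under 0.05 there were 15 members, 5 higher and 10 lower, against 16.2% of all genes (7.55% higher and 8.6% lower). DESeq2 called 8 members and 7.66% of all genes (3% higher and 4.66% lower). Its 8 were Hspa1a, Hspa1b and Dnajb1, higher, and Pfdn1, Pfdn2, Pfdn6, Dnaja2 and Tcp1, lower. Limma-voom with quality weights called 9 members and 8.03% of all genes (2.65% higher and 5.38% lower). Of the 9, Dnajb1 and Hsph1 were higher and Pfdn1, Pfdn2, Pfdn6, Bag1, Tcp1, Ptges3 and Hspe1 lower. The CPM of the groups did not overlap for 12 members, 3 higher and 9 lower in Sirt1-deleted libraries, against 13.1% of all genes (6.64% higher and 6.44% lower). Among the higher ones is Hspb1, which passed the filter on low counts only through the Sirt1-deleted libraries. Leaving out Sirt1-deleted 1 gave 2 edgeR calls among the members, Pfdn1 and Hspe1, both lower, where 3.05% of all genes were called (2.52% lower).

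**Figure D1:**
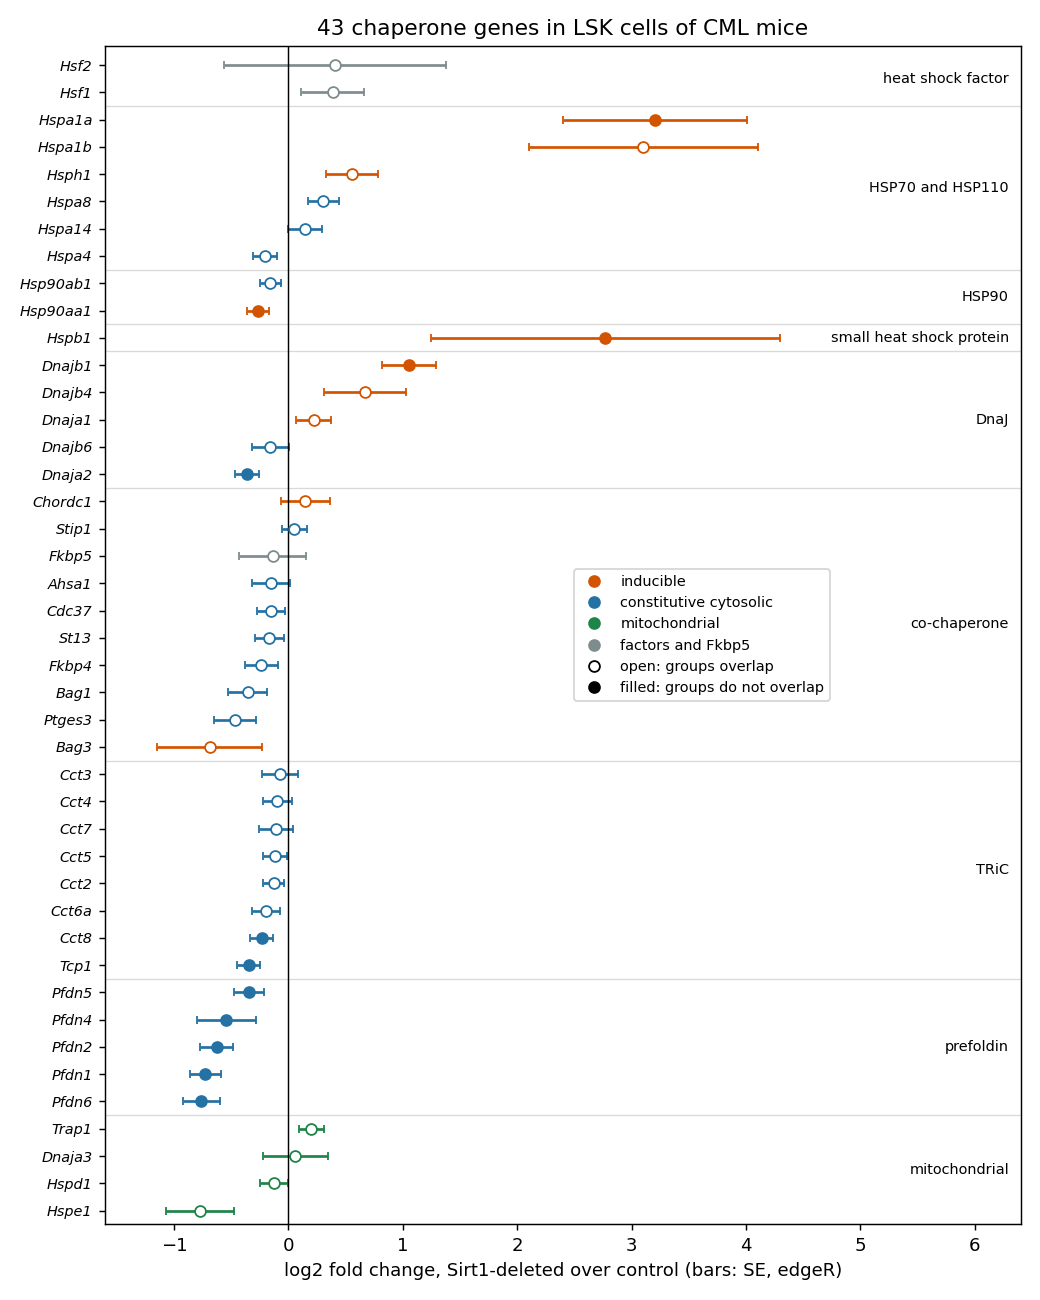
Log2 fold change of each of the 43 chaperone genes, Sirt1-deleted over control, with the edgeR standard error as bars (4 libraries a group), sorted within families and coloured by class. Hspa1a, Hspa1b and Hspb1 lie at the right, at 3.21, 3.10 and 2.77, and the 5 prefoldin subunits all lie left of 0; filled points mark the 12 genes whose groups do not overlap.

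The classes, which were listed with earlier results of these data known, differed in the direction of most values, and no test of this was made. Log2 fold changes of the 10 inducible members had their median at 0.61, 8 positive and 2 negative, while the 26 constitutive cytosolic members had a median of -0.18, 3 positive and 23 negative. The median over all genes tested was 0.062, with 46.1% of values negative. Hspb1 is among the positive inducible values, though it passed the filter on low counts only through the Sirt1-deleted libraries and gives no support for a difference. Hspa1a and Hspa1b, whose transcripts are nearly alike, are counted as separate genes. Both limits hold for the narrow and wide lists below as well. The inducible median rests on which genes are counted as inducible. It was 1.91 over a narrow list (Hspa1a, Hspa1b, Hspb1, Hsph1, Dnajb1 and Bag3) and 0.15 when Hspd1, Hspe1, Stip1, Ahsa1 and Fkbp4 were added.

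For the heat shock factors the values of the groups overlapped. Hsf1, the main activator of heat shock genes, was at 85.3, 122, 107 and 113 CPM in Sirt1-deleted libraries 1 to 4 and at 76.4, 49.7, 129 and 71.4 CPM in controls 1 to 4. The highest value was that of control 3, and the groups overlapped (log2 fold change 0.39 ± 0.27, SE, edgeR adjusted p = 0.548). Hsf2, a related factor with roles in development, was near the limit of detection, with 148, 13, 20 and 33 counts in Sirt1-deleted libraries and 18, 67, 36 and 16 counts in controls. Its log2 fold change of 0.41 was -1.08 without Sirt1-deleted 1.

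Hspa1a and Hspa1b, the stress-inducible cytosolic HSP70 genes, had the largest fold changes among the members. Hspa1a (chr17:34969190-34972156, GRCm38) was at 133, 49.7, 98.8 and 22.2 CPM in Sirt1-deleted libraries 1 to 4, against 4.90, 1.84, 19.9 and 6.39 CPM in controls 1 to 4. All 4 Sirt1-deleted libraries were above all controls, by a narrow margin between Sirt1-deleted 4 and control 3. The log2 fold change was 3.21 ± 0.80 (SE, 9.22-fold, edgeR adjusted p = 0.127, unadjusted p = 0.00336). It was 4.09 without control 3, and 2.42 without Sirt1-deleted 1 and control 2. Hspa1b (chr17:34956436-34959238) was at 121, 64.4, 112 and 15.1 CPM in Sirt1-deleted libraries and 10.4, 0.504, 21.0 and 4.59 CPM in controls. Here Sirt1-deleted 4 lay under control 3, so the groups overlapped (log2 fold change 3.10 ± 1.00, adjusted p = 0.187). Without control 3 it was 3.90, and without Sirt1-deleted 1 and control 2 it was 2.38. The means were 75.9 ± 49.4 and 8.25 ± 7.98 CPM for Hspa1a and 78.1 ± 48.8 and 9.11 ± 8.89 CPM for Hspa1b, in Sirt1-deleted libraries and controls (SD, n = 4 each). Values differed several-fold among the libraries of each group.

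The counts of these 2 genes are uncertain because their transcripts are nearly alike. Of the 50-base words of the longest annotated transcript, 66.3% in Hspa1a and 62.3% in Hspa1b also occur in another gene, mostly each in the other. Reads that align to more than 1 place were set aside in the deposited table and took 24.1 to 30.9% of the records in Sirt1-deleted libraries and 30.1 to 32.3% in controls. Hspa1a held 52.3, 43.6, 46.8 and 59.6% of the counts of the pair in Sirt1-deleted libraries 1 to 4, and 32.1, 78.5, 48.6 and 58.2% in controls 1 to 4, of 1213 to 6566 and 65 to 738 counts. Neither gene held most of the counts in all libraries of a group.

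Hspa8, the constitutive HSP70 that is abundant in all cells, was at 964, 1351, 1343 and 1195 CPM in Sirt1-deleted libraries 1 to 4 and 951, 875, 982 and 1115 CPM in controls 1 to 4. Sirt1-deleted 1 lay within the range of the controls (log2 fold change 0.31 ± 0.13, edgeR adjusted p = 0.303). Per kilobase of exon, Hspa8 averaged 282 CPM in Sirt1-deleted libraries and 228 CPM in controls, against 25.6 and 2.78 CPM for Hspa1a in the same groups. The inducible genes thus stayed below their constitutive relative on that scale in either genotype. Of the 50-base words of Hspa8, 52.7% also occur in other genes.

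Hsph1 and Hspa4 encode HSP110 proteins, which exchange the nucleotide of HSP70, and Hsph1 is the inducible of the pair. Hsph1 was at 29.7, 42.9, 43.9 and 47.9 CPM in Sirt1-deleted libraries and 27.7, 34.3, 19.99 and 30.1 CPM in controls, with Sirt1-deleted 1 inside the control range (log2 fold change 0.55 ± 0.23, edgeR adjusted p = 0.277). Hspa4 was at 249, 247, 237 and 226 CPM in Sirt1-deleted libraries and 290, 304, 272 and 237 CPM in controls (log2 fold change -0.20 ± 0.10, adjusted p = 0.384). Hspa14, a ribosome-associated HSP70 relative, had a log2 fold change of 0.15. It shares 321 exon bases with the locus Gm45902 on the same strand.

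Dnajb1, the inducible J-domain protein that hands substrates to HSP70, had the smallest p of the inducible members. It was at 311, 556, 370 and 322 CPM in Sirt1-deleted libraries 1 to 4, against 186, 134, 187 and 245 CPM in controls 1 to 4. The groups did not overlap (log2 fold change 1.05 ± 0.24, 2.07-fold, edgeR adjusted p = 0.105, unadjusted p = 0.00174). Sirt1-deleted 2, the highest, also had the highest summed level of 14 immediate early genes, 24375 CPM, where the other Sirt1-deleted libraries had 10925 to 14914 CPM and controls 10708 to 14355 CPM. In the fit on all libraries, with Sirt1-deleted 2 included, 11 of the 14 log2 fold changes were positive, with a median of 0.40. That count does not show if the difference holds without Sirt1-deleted 2. Fos and Jun of the same list overlapped between the groups. Egr1, a transcription factor on the list, was at 614, 1679, 595 and 729 CPM in Sirt1-deleted libraries and 404, 239.5, 391 and 355 CPM in controls. These values did not overlap, as for Hspa1a and Dnajb1 (2.60-fold higher, edgeR adjusted p = 0.133), and the part of the immediate early genes in those results was not tested. Without that library the log2 fold change of Dnajb1 was 0.80 and that of Hspa1a 3.34. Dnajb4, another inducible member of the B class, was at 17.5, 15.9, 9.09 and 9.84 CPM in Sirt1-deleted libraries and 6.84, 12.3, 7.59 and 6.16 CPM in controls (log2 fold change 0.67 ± 0.36, adjusted p = 0.409).

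The A class of J-domain proteins had values of either sign. Dnaja1, which is inducible, was at 85.1, 87.0, 73.8 and 64.8 CPM in Sirt1-deleted libraries and 78.8, 61.3, 62.4 and 63.8 CPM in controls, and the groups overlapped (log2 fold change 0.22 ± 0.15, edgeR adjusted p = 0.533). Of its 50-base words, 28.8% occur in other genes, and its exons overlap Smu1 and Gm6297 on the other strand over 857 bases. Dnaja2, its constitutive relative, was at 116, 130, 129 and 108 CPM in Sirt1-deleted libraries and 166, 147, 151 and 156 CPM in controls. All 4 Sirt1-deleted libraries lay below all controls (log2 fold change -0.36 ± 0.11, adjusted p = 0.162). Dnajb6, a constitutive member that holds back aggregation, had a log2 fold change of -0.16, and 42.8% of its 50-base words occur in other genes.

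**Figure D2:**
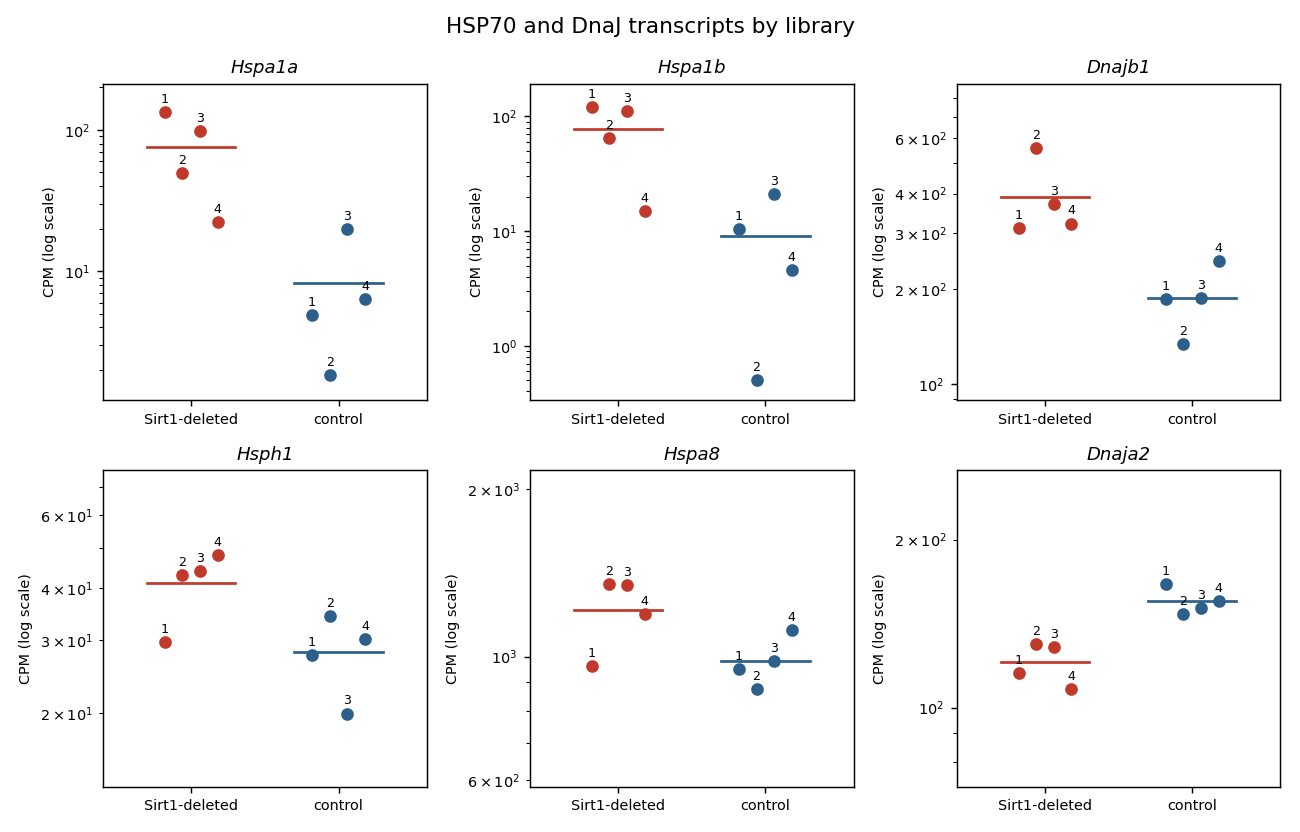
CPM of 6 HSP70, HSP110 and DnaJ genes on log axes, 1 point for each library with its replicate number, Sirt1-deleted at left and control at right, with the group mean as a line. Hspa1a and Dnajb1 are higher in all 4 Sirt1-deleted libraries and Dnaja2 is lower in all 4, while Hspa1b, Hsph1 and Hspa8 overlap.

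Hspb1, the small heat shock protein HSP27 that holds unfolded protein without ATP, was barely detected. It had 64, 377, 63 and 49 counts in Sirt1-deleted libraries 1 to 4, against 23, 0, 0 and 30 counts in controls 1 to 4. These are 2.47, 9.99, 2.57 and 1.51 CPM in Sirt1-deleted libraries and at most 1.42 CPM in controls, and the values did not overlap. Hspb1 had counts in only 2 controls and so passed the filter on low counts only through the Sirt1-deleted libraries. For that reason the separation gives no support for a difference. Of the 50-base words of Hspb1, 51.6% also occur in other genes. Sirt1-deleted 2 was the highest, and the other 3 Sirt1-deleted libraries were also above all controls. The log2 fold change of 2.77 ± 1.52 (edgeR adjusted p = 0.420) was 1.83 without Sirt1-deleted 2 and 3.63 without control 4.

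Both cytosolic HSP90 genes had negative values. Hsp90aa1, the inducible cytosolic HSP90, was at 412, 462, 465 and 389 CPM in Sirt1-deleted libraries and 525, 527, 472 and 550 CPM in controls. All 4 Sirt1-deleted libraries were lower (log2 fold change -0.26 ± 0.10, edgeR adjusted p = 0.239). Hsp90ab1, the constitutive form, had the highest level of all members per kilobase of exon, 939 CPM in Sirt1-deleted libraries and 1046 CPM in controls. It was at 2733, 3005, 2860 and 2668 CPM in Sirt1-deleted libraries and 2837, 3424, 3059 and 3232 CPM in controls (log2 fold change -0.16 ± 0.09, adjusted p = 0.466). Of the 50-base words of Hsp90aa1, 58.5% occur in other genes, chiefly in a locus named Gm12346, against 4.49% for Hsp90ab1.

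Ratios of an inducible gene to a constitutive member of its family, taken within each library, do not depend on how libraries are scaled. For the J-domain proteins the pair joins 2 classes, and the ratio holds both the higher Dnajb1 and the lower Dnaja2. Dnajb1 counts were 269, 427, 288 and 298% of those of Dnaja2 in Sirt1-deleted libraries 1 to 4 and 112, 91.0, 124 and 157% in controls 1 to 4. The difference in the mean log2 ratio was 1.41, and the groups did not overlap (exact two-sided permutation p = 0.0286, the smallest that 4 against 4 libraries allow, adjusted p = 0.0762 over the 4 ratios computed). Dnaja1, of the same class as Dnaja2, was set in place of Dnajb1 after the data had been seen. Its counts were 73.7, 66.9, 57.4 and 59.9% of those of Dnaja2 in Sirt1-deleted libraries and 47.3, 41.7, 41.3 and 41.02% in controls. The difference in log2 ratio was 0.59, with separate groups (exact two-sided permutation p = 0.0286, adjusted p = 0.0762 with this ratio in place of the first among the 4). Dnaja2, the divisor of both ratios, was lower by itself (log2 fold change -0.36). Dnaja1 by itself overlapped between the groups (0.22), so the second ratio is no independent support for the first. Hspa1a and Hspa1b together were 26.3, 8.45, 15.7 and 3.12% of Hspa8 in Sirt1-deleted libraries and 1.61, 0.268, 4.16 and 0.985% in controls (difference 3.14, exact permutation p = 0.0571, adjusted p = 0.0762). Sirt1-deleted 4 was below control 3 on this ratio.

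Hsph1 was 11.97, 17.4, 18.6 and 21.2% of Hspa4 in Sirt1-deleted libraries and 9.52, 11.3, 7.34 and 12.7% in controls (difference in log2 ratio 0.76, exact permutation p = 0.0571, adjusted p = 0.0762). The ratio of Hsp90aa1 to Hsp90ab1 showed the opposite sign, at 15.1, 15.4, 16.3 and 14.6% in Sirt1-deleted libraries and 18.5, 15.4, 15.4 and 17.0% in controls (difference -0.11, exact permutation p = 0.143). None of the 4 passed after adjustment, and none changed sign when any single library was left out.

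**Figure D3:**
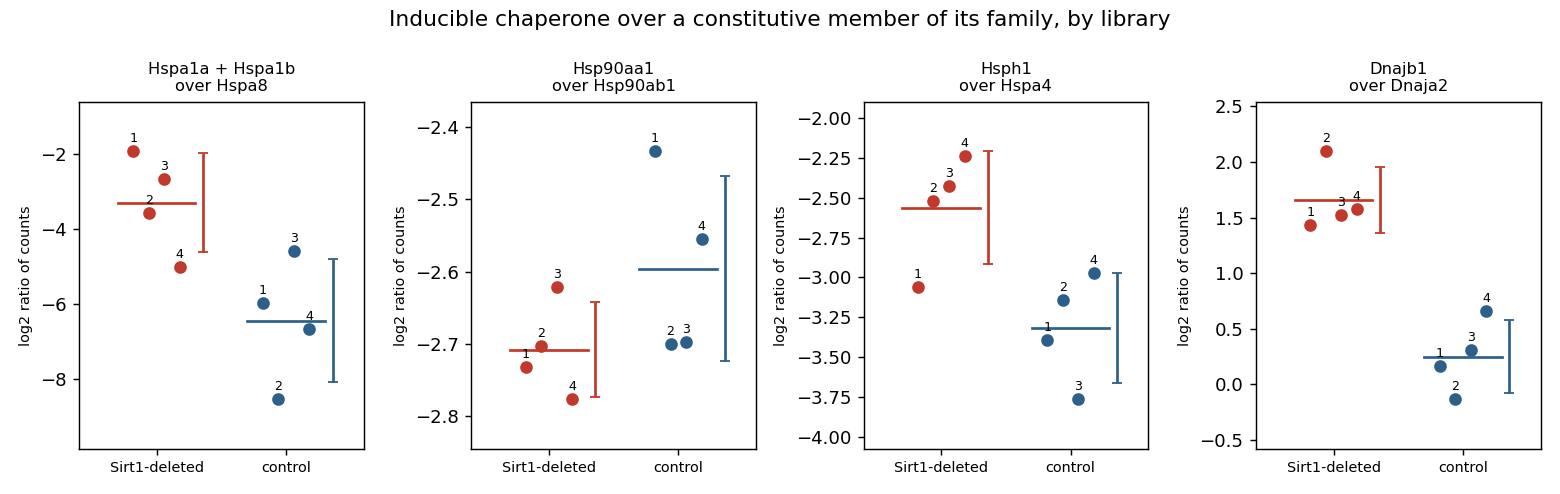
Log2 ratio of the counts of an inducible chaperone to those of a constitutive member of its family, 1 point for each library, Sirt1-deleted at left and control at right; lines are means and bars are SD (n = 4 each). The ratio of Dnajb1 to Dnaja2 separates the groups, that of Hspa1a plus Hspa1b to Hspa8 differs by 3.14 with 1 library out of order, and that of Hsp90aa1 to Hsp90ab1 is lower by 0.11.

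The remaining inducible members are co-chaperones. Bag3, which couples HSP70 to autophagy of misfolded protein, was at 17.6, 10.6, 13.6 and 12.5 CPM in Sirt1-deleted libraries and 15.4, 46.4, 12.7 and 12.7 CPM in controls. Control 2 stood apart, and the log2 fold change of -0.69 (edgeR adjusted p = 0.523) was -0.042 without it. Chordc1, an HSP90 co-chaperone, was at 48.2, 37.6, 41.5 and 32.5 CPM in Sirt1-deleted libraries and 30.4, 48.5, 30.5 and 34.7 CPM in controls (log2 fold change 0.15 ± 0.21, adjusted p = 0.784). Its window holds the most heat shock units of the sequences printed above, and its groups overlapped.

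Prefoldin, which takes unfolded actin and tubulin to TRiC, was lower in Sirt1-deleted LSK cells in all 5 listed subunits, and for each of the 5 the groups did not overlap. Such separation towards lower values was seen in 6.44% of all genes tested. Pfdn1 was at 69.8, 72.2, 60.2 and 64.2 CPM in Sirt1-deleted libraries 1 to 4, against 114, 128, 96.1 and 103 CPM in controls 1 to 4 (log2 fold change -0.73 ± 0.14, edgeR adjusted p = 0.0892, the smallest among the members). Pfdn6 was at 134, 132, 119 and 99.6 CPM in Sirt1-deleted libraries and 213, 258, 181 and 168 CPM in controls (-0.76 ± 0.16, adjusted p = 0.101). Pfdn2 was at 72.8, 80.5, 69.3 and 75.3 CPM in Sirt1-deleted libraries and 131, 102, 130 and 95.9 CPM in controls (-0.62 ± 0.14, adjusted p = 0.106). Exons of Pfdn2 overlap Klhdc9 on the other strand over 535 bases, and 28.8% of its words also occur in that gene. Pfdn6 overlaps CR974462.1 on the other strand over 78 bases, and Pfdn1 has no such overlap and no shared words. The library chemistry does not mark strand, and the part of these overlaps in the values was not tested.

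Pfdn5, also known as an inhibitor of MYC, was at 132, 135, 108 and 131 CPM in Sirt1-deleted libraries and 169, 143, 142 and 189 CPM in controls (log2 fold change -0.34, edgeR adjusted p = 0.255). Pfdn4, the lowest of them, was at 7.66 to 10.5 CPM in Sirt1-deleted libraries and 11.6 to 15.4 CPM in controls (-0.54, adjusted p = 0.347). Exons of Pfdn4 overlap Gm16796 and Cyp24a1 on the other strand over 722 bases. Of the words of Pfdn5, 27.0% also occur in other genes, and its exons overlap Myg1 on the same strand over 165 bases. The subunit Vbp1, which is not a member, overlapped between groups with a log2 fold change of -0.29 (adjusted p = 0.497). The prefoldin values shrank when the trend of each library on gene length and GC content was removed, to -0.40 for Pfdn1, -0.44 for Pfdn6, -0.42 for Pfdn2, -0.064 for Pfdn5 and -0.28 for Pfdn4. With that trend removed only Pfdn4 of the 5 kept groups that did not overlap, where 10.9% of all genes separated. Pfdn1 was called when Sirt1-deleted 1 was left out (-0.79, edgeR adjusted p = 0.0397).

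**Figure D4:**
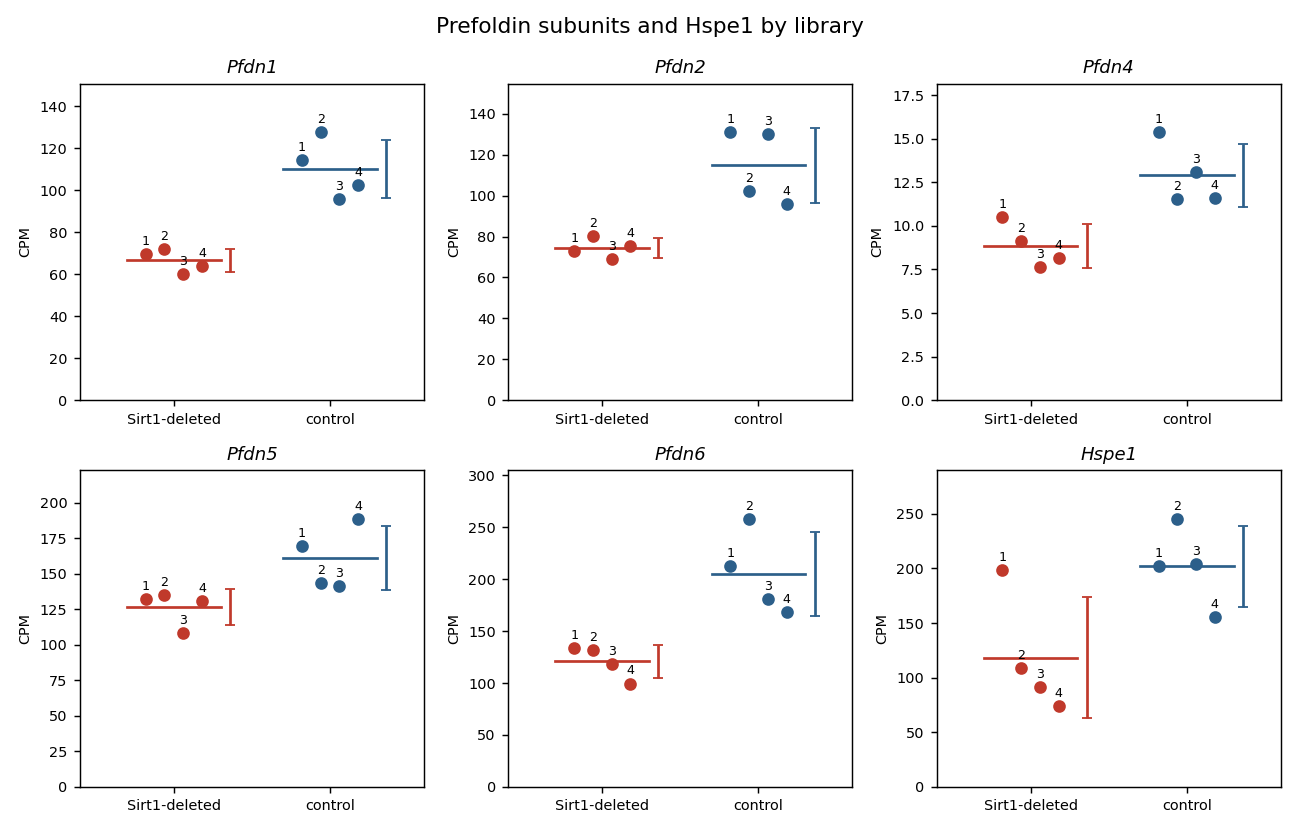
CPM of the 5 prefoldin subunits and of Hspe1, 1 point for each library with its replicate number, Sirt1-deleted at left and control at right; lines are means and bars are SD (n = 4 each), on axes that start at 0. All 5 prefoldin subunits are lower in every Sirt1-deleted library, whereas Hspe1 in Sirt1-deleted 1 stays among the controls at 199 CPM.

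TRiC, the ring-shaped chaperonin that folds actin and tubulin, had small negative values in all 8 subunits. Log2 fold changes ran from -0.35 for Tcp1 to -0.075 for Cct3, with a median of -0.12. The groups did not overlap for 2 subunits, where 6.44% of all genes tested separated towards lower values. Tcp1 was at 233, 209, 199 and 208 CPM in Sirt1-deleted libraries and 267, 295, 244 and 273 CPM in controls (-0.35 ± 0.10, edgeR adjusted p = 0.154). Tcp1 overlaps exons of Acat3 and Mrpl18 on the other strand over 712 bases, and the library chemistry does not mark strand. Cct8 was at 370, 353, 374 and 332 CPM in Sirt1-deleted libraries and 382, 427, 398 and 474 CPM in controls (-0.23 ± 0.10, adjusted p = 0.294). Cct6a was at 334, 383, 366 and 364 CPM in Sirt1-deleted libraries and 355, 450, 366 and 487 CPM in controls (-0.20 ± 0.12, adjusted p = 0.495). The other 5 subunits, Cct2, Cct3, Cct4, Cct5 and Cct7, had adjusted p from 0.537 to 0.861. With the length and GC trend removed, Cct8 was at -0.10 and its groups overlapped, while Tcp1 was at -0.32 and stayed separate. Cct2 was then at -0.0064 and Cct5 at -0.061, whereas Cct3 was at -0.20 and Cct7 at -0.21. Cct4 and Cct6a were at -0.097 and -0.20. TRiC subunits join in equal numbers in the complex, yet their levels per kilobase of exon ran from 42.2 CPM (Tcp1) to 302 CPM (Cct5) in Sirt1-deleted libraries and from 46.7 CPM (Cct4) to 327 CPM (Cct5) in controls.

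The co-chaperones outside the inducible class had mostly negative values. Ptges3, the p23 protein that stabilises closed HSP90, was at 71.1, 61.3, 51.5 and 44.0 CPM in Sirt1-deleted libraries and 92.0, 78.9, 67.0 and 77.5 CPM in controls. Sirt1-deleted 1 lay above control 3 (log2 fold change -0.47 ± 0.18, edgeR adjusted p = 0.259). Bag1, a nucleotide exchange factor of HSP70, was at 385, 280, 254 and 225 CPM in Sirt1-deleted libraries and 368, 390, 388 and 316 CPM in controls. Sirt1-deleted 1 was again among the controls (-0.35 ± 0.17, adjusted p = 0.356). Fkbp4, an immunophilin of steroid receptor complexes, was at 594, 680, 692 and 573 CPM in Sirt1-deleted libraries and 609, 872, 853 and 658 CPM in controls (-0.24 ± 0.14, adjusted p = 0.468).

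Of the others, the HSP70-HSP90 adaptor Stip1 had a log2 fold change of 0.053, the HSP70-interacting St13 -0.17, the kinase-loading Cdc37 -0.15 and the HSP90 ATPase activator Ahsa1 -0.15. Fkbp5, an immunophilin whose gene is induced by glucocorticoid, had -0.14. Their edgeR adjusted p ran from 0.587 to 0.863, and the groups overlapped for all 5.

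The 4 mitochondrial chaperones had values of either sign, with a median log2 fold change of -0.033. Hspe1, the HSP10 lid of the mitochondrial chaperonin, was at 199, 109, 91.5 and 74.0 CPM in Sirt1-deleted libraries 1 to 4 and 202, 246, 204 and 156 CPM in controls 1 to 4. Sirt1-deleted libraries 2 to 4 were below all controls and Sirt1-deleted 1 was not (log2 fold change -0.77 ± 0.30, edgeR adjusted p = 0.254). Without Sirt1-deleted 1 the log2 fold change was -1.19 (edgeR adjusted p = 0.0357). With control 2 left out too, so that both libraries of fewest detected genes were absent, it was -1.08 (adjusted p = 0.0439), where 2.13% of all genes were called (1.61% lower). It was -0.47 (adjusted p = 0.503) with the length and GC trend removed.

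Hspd1, the HSP60 ring that Hspe1 closes, is read from the same promoter region in the other direction. It was at 244, 259, 249 and 232 CPM in Sirt1-deleted libraries and 234, 303, 236 and 300 CPM in controls (log2 fold change -0.13 ± 0.12, edgeR adjusted p = 0.659). Hspe1 counts were 81.4, 42.1, 36.7 and 31.9% of Hspd1 counts in Sirt1-deleted libraries and 86.1, 81.1, 86.6 and 51.8% in controls. Of the 50-base words of Hspd1, 44.8% occur in other genes, chiefly the locus Hspd1-ps3, against 8.20% for Hspe1.

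Trap1, the mitochondrial HSP90, was at 265, 261, 277 and 269 CPM in Sirt1-deleted libraries and 201, 264, 218 and 248 CPM in controls, with control 2 inside the Sirt1-deleted range (log2 fold change 0.20 ± 0.11, edgeR adjusted p = 0.402). Dnaja3, the mitochondrial J-domain protein, was at 39.4, 95.3, 98.6 and 98.7 CPM in Sirt1-deleted libraries and 68.0, 74.5, 94.7 and 81.5 CPM in controls. Sirt1-deleted 1 alone was below the controls (log2 fold change 0.059 ± 0.28, adjusted p = 0.941).

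Beyond the members, 59 related genes of the system were listed, of which 53 were tested: other HSP70, J-domain, small heat shock and BAG proteins, ribosome-bound chaperones, chaperones of the endoplasmic reticulum and mitochondrial import and proteolysis factors. The edgeR test called 0 of them, where it called 0.0846% of all genes tested. At an unadjusted p under 0.05 there were 9 (1 higher and 8 lower), against 16.2% of all genes (7.55% higher and 8.6% lower). The groups did not overlap for 6 (2 higher and 4 lower), against 13.1% of all genes (6.64% higher and 6.44% lower). Both counts are near or below those shares, and the median log2 fold change was -0.056. Grpel1, the mitochondrial nucleotide exchange factor of HSP70, had the smallest p, with 196 ± 4.13 CPM in Sirt1-deleted libraries and 302 ± 33.5 CPM in controls (SD, n = 4 each). Its log2 fold change was -0.62 ± 0.10 (edgeR adjusted p = 0.0672). Hspa5, the HSP70 of the endoplasmic reticulum known as BiP, had 1299 ± 132 CPM in Sirt1-deleted libraries and 919 ± 80.6 CPM in controls (0.50 ± 0.11, adjusted p = 0.101). Btf3 and Naca, which form the nascent-chain-associated complex on ribosomes, had log2 fold changes of -0.47 and -0.50 (adjusted p = 0.118 and 0.140). For each of these 4 the values of the groups were separate. DESeq2 and limma-voom each called 8 of the related genes, 1 higher and 7 lower. Over all genes DESeq2 called 7.66% (3% higher and 4.66% lower) and limma-voom 8.03% (2.65% higher and 5.38% lower).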

How the data were processed

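The authors deposited one table of raw whole-number read counts. HTSeq 0.9.1, STAR 2.5.3, DESeq2 1.20.0, Trim Galore 0.5.0, bcl2fastq 2.18.0.12 and the build GRCm38 are listed in the submitters' processing notes, without an annotation release or strand setting. Per the labels' protocols, libraries were made with the SMARTer Ultra Low Input kit and Nextera XT, without molecular identifiers, so PCR copies are counted. The table held 48795 genes, of which 99.1% matched a symbol, and 5 summary rows (33.2 to 40.6% of the records), which were left out. Columns were matched by title. That of control 4 differs from its title in a letter, and no other title shares its start. Replicate numbers follow deposit order and pair nothing.

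Genes were compared with edgeR 4.0.16 (R 4.3.3; quasi-likelihood F test, TMM, filterByExpr, robust) on all 8 libraries, with Benjamini-Hochberg adjustment over 14178 genes and a call at 0.05. DESeq2 1.42.0 and limma 3.58.1 were alternatives, and the procedure was tested on simulated data. SE was taken as the size of the log2 fold change divided by the root of F. Ratios carried a pseudocount of 0.5. Positive values mean higher in Sirt1-deleted libraries. Exon lengths, overlaps and shared 50-base words came from GENCODE M21 (GRCm38). Named genes were all members, with library values for the factors, inducible genes and their partners, mitochondrial members, and up to 3 of smallest p in TRiC, prefoldin and co-chaperones. The members and lists were chosen with earlier results of these data known. The promoters of Hspa1a, Hspa1b and Hspe1 and the ratio of Hspe1 to Hspd1 were chosen after values were seen. Levels of some single marker genes are not reported here.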

Additional observations from a re-analysis of the deposited data

Results flagged for a closer look

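In 7 of 94 groups of 4 values examined, a library stood far from the other 3, which chance alone does in about 1 in 20 groups. Hspb1 was at 9.99 CPM in Sirt1-deleted 2, where the next highest Sirt1-deleted library had 2.57 CPM. Hsf2 was at 5.72 CPM in Sirt1-deleted 1, against 1.01 CPM in the next highest. Sirt1-deleted 1 also had the lowest Dnaja3 (39.4 CPM, next 95.3 CPM) and Cct7 (613 CPM, next 767 CPM) of its group. Pfdn5 was lowest in Sirt1-deleted 3 (108 CPM, next 131 CPM). Among controls, Bag3 was highest in control 2 (46.4 CPM, next 15.4 CPM) and Dnaja1 in control 1 (78.8 CPM, next 63.8 CPM). Sirt1-deleted 1 and control 2 are the libraries with the fewest detected genes, and the part of this in their values was not tested.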

How the results depend on the processing

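No paired analysis was possible because the labels give no replicate numbers. Over all genes, the 12 calls of edgeR became 1086 with DESeq2, 1139 with limma-voom, 311 without the 2 libraries with fewest detected genes, 0 with detected genes as a covariate, 7 with the length and GC trend removed, 1 in the titles starting with 2 and 4, and 0 to 451 when single libraries were left out. The members called, 0 in the fit reported, were 8, 9 and 1 in the first 3 of these and 0 to 2 with single libraries left out. The related genes called were 8, 8 and 4, and 0 to 5. The setting of titles starting with 2 and 4 left out Sirt1-deleted 2 and control 4. No first digit of a title occurs in both genotypes, so digit and genotype cannot be told apart. With the length and GC trend removed, the groups did not overlap for 7 members (Hspa1a, Hspb1, Dnajb1, Hsp90aa1, Tcp1, Pfdn4 and Trap1). The share of all genes that separated under that setting is given with the prefoldin values above. Pfdn1, Pfdn2, Pfdn5, Pfdn6, Dnaja2 and Cct8 thus lost the separation, and Trap1 gained it. The log2 fold change of Dnaja2, the divisor of the J-domain ratios, was -0.20 under that setting. Counting separation under that setting was decided after the data were seen. The inducible median was 1.91 and 0.15 over the narrow and wide lists, and the constitutive median ran from -0.26 to -0.16 without single libraries. The cause was not tested in any case.

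The sign of the log2 fold change held in all 17 alternatives for 38 members and turned for 5, none of them called in any. Dnaja3 had -0.31 with detected genes as a covariate, -0.026 with the length and GC trend removed, -0.014 in the titles starting with 2 and 4, and -0.072 to 0.25 without single libraries. Stip1 had -0.048 without the 2 libraries with fewest detected genes, -0.028 with the covariate, and -0.068 to 0.11 without single libraries. Hsf2 had -0.43 with limma-voom, -0.73 without those 2 libraries, and -1.08 to 0.73 without single libraries. Fkbp5 had 0.099 with limma-voom and -0.32 to 0.077 without single libraries, and Cct3 -0.21 to 0.019. Low counts limit Hsf2 and Hspb1. Sequence shared with other genes limits chiefly Hspa1a, Hspa1b, Hsp90aa1, Hspa8, Hspb1, Hspd1 and Dnajb6.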
